A study of Mus musculus with 16 samples.

Results

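Schwann cells ensheath the axons of the nerve branches that run through skeletal muscle, so a whole muscle holds a small amount of their RNA beside that of the myofibers. The expression of 7 Schwann cell and myelin genes is described here: Pmp22, Mbp, Mag, Prx, Ncmap, S100b and Sox10. They were chosen by symbol from the 47643 genes of the table, and all 7 were above 0 in each of the 16 samples and passed the filter on low values. RNA came from tibialis anterior muscles of C57BL6/J mice labelled as male, with 4 mice in each of 4 groups, which were WT and UBR4 mKO mice at 6 and at 24 months of age. All mice carried floxed Ubr4 alleles (UBR4 fl/fl) and all received tamoxifen at the same age, before 6 months. The UBR4 mKO mice also carried ACTA1-Cre, and the WT mice were siblings without Cre. In the UBR4 mKO mice, age and the time since deletion therefore cannot be told apart. UBR4 is a ubiquitin ligase, and the comparisons ask how its loss from muscle and the age of the mouse relate to the transcriptome. The ACTA1 promoter is that of skeletal muscle actin, so the deletion is directed at the myofibers and not at the Schwann cells that the 7 genes are used to mark.

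Myelin is the stack of Schwann cell membrane around an axon that lets impulses travel fast. In its compact part, PMP22 and MBP hold neighbouring membranes together, whereas MAG sits in the membrane that faces the axon, periaxin (the product of Prx) lies under the outermost membrane, and NCMAP is a small membrane protein of myelinating Schwann cells. S100B is a calcium-binding protein used as a general Schwann cell marker, and SOX10 is the transcription factor that sets Schwann cell identity and, with EGR2, drives myelin genes. In muscle, myelinated fibers reach the motor endplates and muscle spindles, and the RNA of these genes is read here as a sign of nerve. Whether other cells of the muscle also contributed to it was not tested.

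Levels are in TPM, which divide reads by transcript length and scale each sample to a sum of 1000000, so the number of reads is unknown and levels of different genes may be set side by side. In such whole-muscle samples, fewer cells of a type and less RNA per cell cannot be told apart. Myofiber markers (Acta1, Ckm, Myh4, Myh1 and Tnnt3) summed to 54240 to 61679 TPM in 6-month-old WT samples and to 65693 to 74460 TPM in the other 3 groups, without overlap. Ubr4 ranged from 9.09 to 15.7 TPM in 6-month-old WT and from 4.91 to 6.54 TPM in 6-month-old UBR4 mKO muscles. At 24 months it ranged from 17.0 to 21.1 TPM in WT and from 4.28 to 14.6 TPM in UBR4 mKO muscles, so the genotypes did not overlap at either age. The sex label does not match all libraries. Xist, which female cells transcribe, was at 0.711 to 23.8 TPM in all 8 libraries from 6-month-old mice and at no more than 0.0252 TPM in all 8 from 24-month-old mice. The Y-linked gene Ddx3y was at 0.0730 TPM in replicate 4 of 6-month-old UBR4 mKO, the library with the most Xist, and at 2.29 to 30.5 TPM in the others. In 6-month-old WT, Ddx3y was at 2.29 to 13.4 TPM and Eif2s3y, also Y-linked, at 1.69 to 9.88 TPM. In replicates 1, 2 and 3 of 6-month-old UBR4 mKO they were at 13.2 to 22.6 and 14.5 to 18.4 TPM. Age and the presence of Xist therefore cannot be told apart in comparisons between ages, and results that rest on replicate 4 are also given without it. Y-linked RNA also differed between the genotypes at 6 months. Its part in that comparison and in the interaction of genotype and age was not tested.

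The regions around the transcription starts are shown for 3 members, Ncmap because it had the largest called changes, and Prx and Mag because of motif matches. Prx holds a match to a motif of the EGR family, and Mag holds matches to motifs of the SOX and EGR families. SOX10 and EGR2 belong to these families. Each stretch runs 5′ to 3′ from 250 bases before to 50 bases after a start in GRCm38.p6 (RefSeq). Windows on the chromosome that holds Mbp were not searched, and 5 of the 7 members had at least 1 of the windows used. The motifs searched on both strands were ACAAAG and ACAATG (SOX core) and GTGGGNG (EGR core), and capitals mark every match.
Ncmap, upstream start, chr4:135398178-135398477, minus strand: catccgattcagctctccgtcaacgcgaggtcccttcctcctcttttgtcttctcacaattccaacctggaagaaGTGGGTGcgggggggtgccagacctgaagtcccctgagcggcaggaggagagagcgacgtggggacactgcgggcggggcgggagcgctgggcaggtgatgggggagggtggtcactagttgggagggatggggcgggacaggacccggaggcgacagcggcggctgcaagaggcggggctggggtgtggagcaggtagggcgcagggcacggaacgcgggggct
Ncmap, downstream start within the gene, chr4:135385623-135385922, minus strand: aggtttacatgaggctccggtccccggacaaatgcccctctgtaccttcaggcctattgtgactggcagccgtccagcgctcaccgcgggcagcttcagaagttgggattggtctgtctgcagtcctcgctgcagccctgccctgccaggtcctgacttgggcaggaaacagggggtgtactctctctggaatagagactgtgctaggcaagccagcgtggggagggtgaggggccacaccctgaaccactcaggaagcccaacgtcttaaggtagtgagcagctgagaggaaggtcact
Prx, chr7:27499074-27499373, plus strand: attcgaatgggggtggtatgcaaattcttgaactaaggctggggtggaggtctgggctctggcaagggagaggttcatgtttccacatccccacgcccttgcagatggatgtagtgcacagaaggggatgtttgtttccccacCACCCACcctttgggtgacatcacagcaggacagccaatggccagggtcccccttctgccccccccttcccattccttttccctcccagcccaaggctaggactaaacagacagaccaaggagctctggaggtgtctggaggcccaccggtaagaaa
Mag, chr7:30914814-30915113, minus strand: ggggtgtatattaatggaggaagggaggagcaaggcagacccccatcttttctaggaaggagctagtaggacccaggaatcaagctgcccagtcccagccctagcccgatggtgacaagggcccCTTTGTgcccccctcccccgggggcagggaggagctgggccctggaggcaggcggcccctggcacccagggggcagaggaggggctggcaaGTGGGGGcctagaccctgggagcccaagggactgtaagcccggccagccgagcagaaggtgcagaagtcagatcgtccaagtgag

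The EGR core began 175 bases before the upstream start of Ncmap and 107 bases before that of Prx. The Mag window shown, 1 of 3 for this gene, held an EGR core 35 bases before the start and a SOX core 126 bases before it, and these matches did not overlap. A second Mag window (chr7:30914873-30915172) overlaps the one shown and holds the same matches, 24 bases after and 67 bases before its own start. The third Mag window (chr7:30914272-30914571), the downstream start of Ncmap, the 4 windows of Pmp22 and the window of S100b (chr10:76253586-76253885) held none of the letters searched. Among the 32851 windows of the same length that were searched, 31.6% held GTGGGNG, 18.7% ACAAAG and 12.6% ACAATG. Single matches are therefore common and describe the sequence only. Ncmap covers chr4:135369576-135398227 on the minus strand, Prx chr7:27499324-27520214 on the plus strand and Mag chr7:30899176-30914873 on the minus strand. Pmp22 covers chr11:63128982-63159547 and S100b chr10:76253853-76261159, both on the plus strand, and Sox10 covers chr15:79154908-79165240 on the minus strand (GENCODE annotation of GRCm38). The end of S100b overlaps Dip2a, which lies on the opposite strand and had a mean of 1.98 TPM, and the use of strand in counting is not given in the sources used here.

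The members spanned a wide range of levels, in the order Pmp22, Mbp, Prx, S100b, Ncmap, Sox10 and Mag. Pmp22 averaged 15.1 TPM over the 16 samples (13.0 to 17.7), above 78.4% of the genes tested. Mbp averaged 3.45 TPM (2.65 to 4.77), Prx 1.76 TPM (1.17 to 2.35), S100b 1.24 TPM (0.684 to 2.01) and Ncmap 1.02 TPM (0.488 to 1.38). The lowest levels were those of Sox10, with 0.599 TPM (0.290 to 1.12), and Mag, with 0.205 TPM (0.113 to 0.361). The ranges of Pmp22, Mbp and Prx were apart, whereas those of the lower neighbours overlapped. Prx exceeded S100b in 14 of 16 samples, Ncmap exceeded Sox10 in 14 and Sox10 exceeded Mag in 16, but S100b exceeded Ncmap in only 8. The steadiest member was Pmp22, whose highest sample was 1.36 times its lowest, and the most variable was Sox10, at 3.85 times. The oligodendrocyte markers Mog, Mobp, Opalin and Olig2, which mark the myelinating cells of the central nervous system, reached at most 0.0539 TPM, and Mobp was at 0 in every sample.

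**Figure D1:**
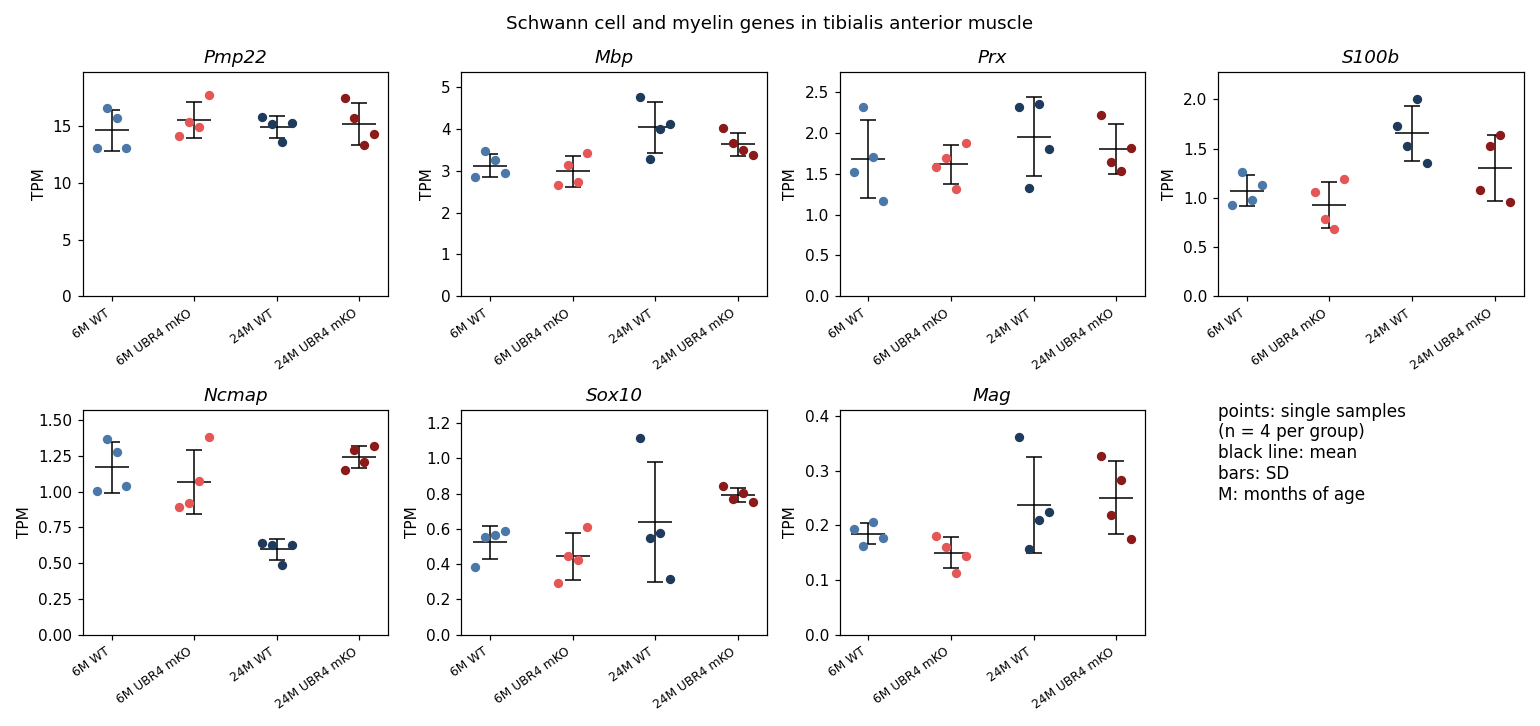
Level of each member in TPM (vertical axes, from 0) in the 4 groups (horizontal axes), with points for single samples, black lines for means and bars for the SD (n = 4 per group). Ncmap is low in all 4 WT samples at 24 months, between 0.488 and 0.639 TPM, below every other sample, whereas the groups of Pmp22 overlap throughout.

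In 6-month-old muscles, none of the 7 members was called between UBR4 mKO and WT in TPM as deposited. The loss of UBR4 went with changes in 38.8% of all genes tested (37.7% higher and 1.04% lower, at a limma adjusted p under 0.05). Pmp22 was at 13.0, 16.6, 15.7 and 13.1 TPM in the WT samples and at 14.1, 15.3, 14.9 and 17.7 TPM in the UBR4 mKO samples. Mbp was at 2.84, 3.46, 3.25 and 2.94 TPM in WT and at 2.65, 3.14, 2.73 and 3.43 TPM in UBR4 mKO. The genotypes overlapped for both of these compact myelin genes, as they did for the other 5 members, whereas 36.7% of all genes did not overlap. Fold changes are given as differences in log2(TPM + 0.1), a scale that makes those of low genes look smaller, with their standard error (SE). They lay between -0.21 (Sox10, SE 0.26, adjusted p = 0.507) and 0.09 (Pmp22, SE 0.11, adjusted p = 0.513) in limma. No member had an unadjusted limma p under 0.05, against 50.8% of all genes, and no exact permutation p was under 0.114 (two-sided, 4 against 4 samples). The 95% intervals, such as -0.33 to 0.20 for Mbp and -0.64 to 0.25 for Mag, cover changes in both directions.

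Because 88.2% of genes lay above 0 in this comparison, with the median gene at a log2 fold change of 0.34, the members were also read against that shift. Their own median was -0.13, and each of the 7 lay below the median gene, by 0.25 (Pmp22) to 0.56 (Sox10). Dividing every sample by its median-of-ratios factor, which centres the genes, brought the median gene to 0.01. Mbp then stood at 3.30, 3.44, 3.80 and 4.10 scaled TPM in WT and at 2.49, 2.98, 2.52 and 2.93 in UBR4 mKO, without overlap, as did 13.1% of all genes in that direction. In that scaling 3 of the 7 members were lower in UBR4 mKO, which were Mbp (log2 fold change -0.41, adjusted p = 0.0211 in limma), Ncmap (-0.46, adjusted p = 0.0240) and Pmp22 (-0.26, adjusted p = 0.0367), beside 7.73% of all genes lower. Without replicate 4 of UBR4 mKO the same scaling again called 3 and the TPM as deposited again called 0. The direction for Pmp22 thus depended on the scaling, and TPM rescaled without the mitochondrial genes called 0 of the 7.

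**Figure D2:**
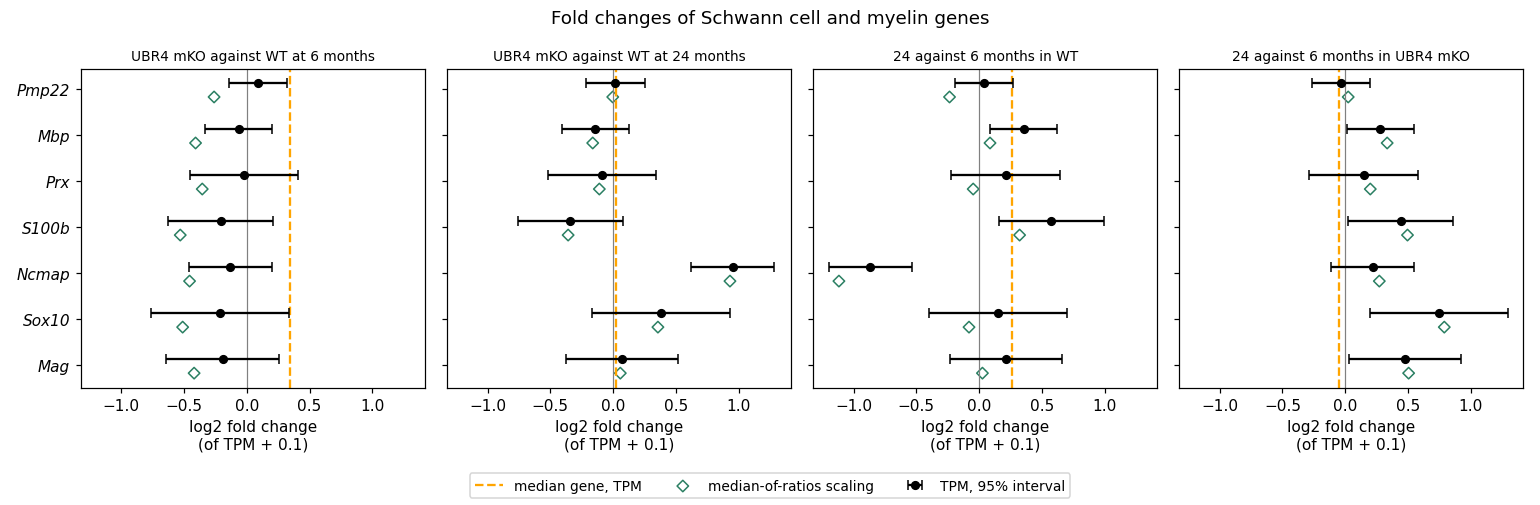
Log2 fold change of TPM + 0.1 (horizontal axes) of each member in 4 comparisons, with black points and 95% intervals for TPM, green diamonds for median-of-ratios scaling and a dashed line for the median gene in TPM. Ncmap stands apart at 24 months (0.95) and in the age comparison of WT (-0.87), and in 6-month-old muscles all 7 points lie left of the dashed line at 0.34.

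In 24-month-old muscles, Ncmap differed between the genotypes and was higher in UBR4 mKO, the only member called in this comparison. It was at 0.639, 0.630, 0.488 and 0.628 TPM in the WT samples and at 1.15, 1.30, 1.21 and 1.32 TPM in the UBR4 mKO samples. The lowest UBR4 mKO sample exceeded the highest WT sample, which held for 4.08% of all genes. WT averaged 0.596 ± 0.0724 TPM and UBR4 mKO 1.24 ± 0.0787 TPM (SD, n = 4 for each). The log2 fold change of 0.95 (SE 0.16) had an adjusted p of 0.0139 in limma, and the exact permutation test gave p = 0.0286, two-sided, the smallest that 4 against 4 samples allow. Of all genes, 0.595% were called, 0.36% higher and 0.235% lower. The call was kept in the 16 fits that each left out 1 sample but was lost when the 24-month-old groups were fitted alone (adjusted p = 0.0768, same fold change). It was also lost with Dunn's test, which called 0 genes in this comparison.

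The other 6 members did not pass the test at 24 months. S100b was at 1.73, 1.52, 2.01 and 1.35 TPM in WT and at 1.08, 1.53, 1.64 and 0.960 TPM in UBR4 mKO, a log2 fold change of -0.34 (95% interval -0.76 to 0.08). Sox10 was at 1.12, 0.550, 0.575 and 0.314 TPM in WT and at 0.844, 0.769, 0.803 and 0.753 TPM in UBR4 mKO. The WT samples of Sox10 spread on both sides of the closely grouped UBR4 mKO samples, and the fold change of 0.38 (SE 0.26) had an adjusted p of 0.698 in limma. Mbp, Prx, Mag and Pmp22 had fold changes between -0.14 and 0.07 with overlapping groups. The median over the 7 members was 0.02, as was that of all genes. The 5 adipocyte markers summed to 2.36 to 4.68 TPM in WT and 2.65 to 20.4 TPM in UBR4 mKO, and the 6 leukocyte markers to 26.2 to 54.8 and 65.9 to 283.3 TPM, with 0 of the 5 tested in each list called in TPM. With median-of-ratios scaling 1 adipocyte marker (Retn) was higher (1.17, adjusted p = 0.0334). Their part in the difference of Ncmap was not tested.

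Between 6 and 24 months in WT, Ncmap fell and S100b rose, in a comparison that called 19.6% of all genes, 18.6% higher and 1.08% lower. Ncmap was at 1.01, 1.37, 1.28 and 1.04 TPM at 6 months, above the 0.488 to 0.639 TPM of all 24-month-old WT samples. Lower values without overlap were found for 1.81% of all genes. The fold change of Ncmap was -0.87 (SE 0.16, adjusted p = 0.00188 in limma, and p = 0.0286 in the two-sided exact permutation test), and -1.12 with median-of-ratios scaling. S100b was at 0.922, 1.27, 0.974 and 1.13 TPM at 6 months, below all 24-month-old WT samples, as were 21.8% of all genes. Its fold change of 0.58 (SE 0.20) lay at the threshold (adjusted p = 0.04999 in limma), and was 0.32 with median-of-ratios scaling (adjusted p = 0.386). The call of S100b was lost in 11 of the 16 fits without 1 sample (adjusted p 0.0519 to 0.117), which were those without a WT sample other than replicate 2 at 6 months, or without replicate 1 or 2 of either UBR4 mKO group. The median gene moved by 0.26 in TPM in this comparison, so a rise of S100b relative to other genes was not shown. The call of Ncmap was lost when Xist was a covariate, with a fold change of -0.15 (adjusted p = 0.733), in a fit that called 7 genes in all, and of -0.62 (adjusted p = 0.659) with median-of-ratios scaling and the same covariate. Dunn's test, which called 0 genes, also lost it (adjusted p = 0.144).

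Mbp in the same comparison was at 2.84 to 3.46 TPM at 6 months and at 4.77, 3.29, 4.00 and 4.13 TPM at 24 months. Replicate 2 at 24 months lay within the 6-month range, and the log2 fold change of 0.35 (SE 0.13, adjusted p = 0.0579 in limma) did not pass. It passed without replicate 2 of WT at 6 months (adjusted p = 0.0303) or at 24 months (0.0317) and without replicate 3 of 24-month-old UBR4 mKO (0.0423). Mbp also passed when only genes with a mean of at least 1 TPM were tested (adjusted p = 0.0488) and with array weights (0.50, adjusted p = 0.00278). Array weights called 6571 of all genes in this comparison, against 2840 in the main fit. With median-of-ratios scaling the fold change of Mbp was 0.09. Prx, Mag and Sox10 had fold changes of 0.21, 0.22 and 0.15 and Pmp22 of 0.04, all with overlapping ages. The members' median of 0.21 was near that of all genes. In this comparison 3 of 5 leukocyte markers rose (median 1.39), with list sums of 13.7 to 20.5 TPM at 6 months and 26.2 to 54.8 TPM at 24 months. Of the 5 myofiber markers 4 rose and Myh1 fell, with a median of 0.27, and of the 5 fibroblast markers Col1a1 fell by 1.91. With median-of-ratios scaling, 1 leukocyte and 1 myofiber marker were higher, and Myh1, Col1a1, 4 of the 5 endothelial markers (median -0.40), 1 mural cell marker (Rgs5) and 1 tendon marker (Tnmd) were lower. Of all genes tested in that scaling, 614 were higher and 619 lower. The part of these other cell types in the values of the members was not tested.

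Between 6 and 24 months in UBR4 mKO, no member was called, beside 6.49% of all genes (2.46% higher, 4.03% lower), although 4 members had an unadjusted limma p under 0.05 (20.3% of all genes). Sox10 was at 0.290, 0.445, 0.425 and 0.613 TPM at 6 months, below the 0.753 to 0.844 TPM of all 24-month-old samples. Higher values without overlap were found for 4.33% of all genes. For Sox10 the fold change was 0.75 (SE 0.26, adjusted p = 0.103 in limma, and p = 0.0286 in the two-sided exact permutation test). Without replicate 1 of 24-month-old WT, which enters only the estimate of the spread, its adjusted p was 0.0489. Mag (0.48), S100b (0.44) and Mbp (0.28) had fold changes above 0 with overlapping ages and adjusted p between 0.210 and 0.223. The members' median was 0.28, whereas the median gene was at -0.05. Among markers of other cells, 3 of 5 endothelial (4 with median-of-ratios scaling), 3 of 5 tendon, 2 of 5 fibroblast and 1 of 4 mural cell markers fell, and the adipocyte marker Retn rose. Of the myofiber markers 2 rose and 2 fell, 0 leukocyte and 0 blood markers were called, and the blood median was 0.61. Their part in the members' values was not tested. Ncmap was at 0.895, 0.918, 1.08 and 1.38 TPM at 6 months and overlapped with the 1.15 to 1.32 TPM at 24 months (log2 fold change 0.22, adjusted p = 0.487).

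The difference between the ages in the effect of UBR4 loss was tested as the interaction of genotype and age. Since all mice received tamoxifen at the same age, such a difference cannot be told apart from one by time since deletion. Ncmap had an interaction of 1.09 on the log2 scale (SE 0.22, adjusted p = 0.0150 in limma). Of all genes 3.51% were called, with 15 genes (0.104%) above 0, among them Ncmap, and 3.41% below 0. With median-of-ratios scaling the split was close to even, with 90 genes above 0 and 113 below, so the small number above 0 in TPM depends on the scaling. Relative to the median gene, at -0.32, the interaction of Ncmap was 1.40. It kept its call in the 12 alternatives, with values of 0.57 to 1.48, and in the 16 fits without 1 sample, with values of 1.01 to 1.21. The next largest value among the members was that of Sox10, 0.59 (SE 0.37, adjusted p = 0.279), and the other 5 lay between -0.13 and 0.26. In Pmp22, Mbp, Prx and S100b the sign was below 0 in TPM and above 0 with median-of-ratios scaling.

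Set beside the other members of the same sample, Ncmap took a similar share in 3 groups and a smaller share in the fourth. Relative to the summed TPM of the other 6 members, it came to 5.52% ± 0.171 in WT and 4.91% ± 0.623 in UBR4 mKO at 6 months (SD, n = 4 for each). At 24 months the share was 2.55% ± 0.315 in WT and 5.47% ± 0.745 in UBR4 mKO. The range in 24-month-old WT, 2.15% to 2.86%, lay below the lowest share in any other group, 4.26%. Such a share does not depend on the scaling of the sample, and it is given as a description with no test. Pmp22 averaged 15.1 TPM and the next highest member, Mbp, 3.45 TPM, so the share mainly sets Ncmap against Pmp22.

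**Figure D3:**
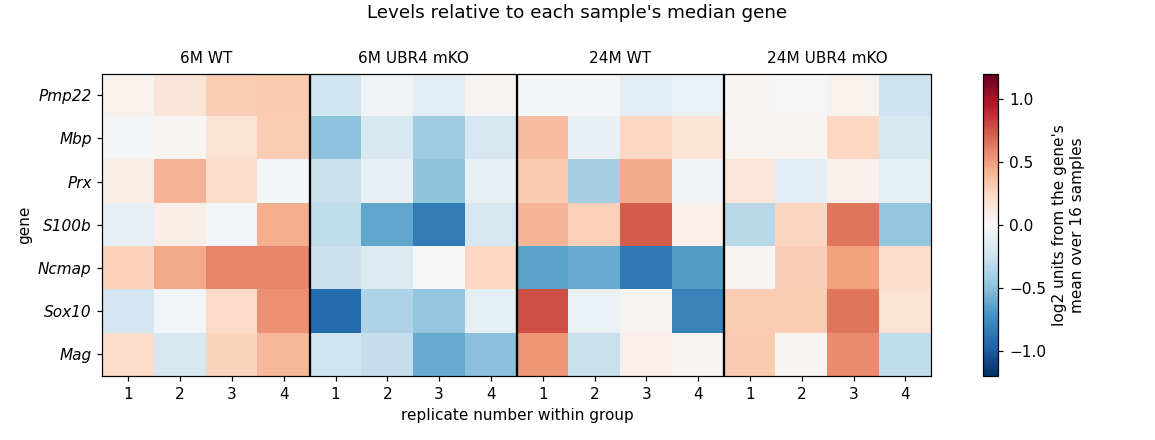
Level of each member (rows) in each sample (columns, by group and replicate number) on the log2(TPM + 0.1) scale, relative to the sample's median gene and to the gene's mean over the 16 samples (colour, in log2 units). The row of Ncmap is blue in all 4 WT samples at 24 months, and most cells of 6-month-old UBR4 mKO are blue.

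The members were compared across samples by their correlation in pairs. Relative to each sample's median gene, Pearson's r over the 16 samples lay between 0.33 and 0.84 for the 15 pairs without Ncmap, with a median of 0.55, and was highest for Mbp and Mag. The 6 pairs with Ncmap had r between -0.14 (S100b) and 0.59 (Pmp22), with a median of 0.07. Pmp22 correlated with Ncmap more highly than with any of the other 5 members (0.33 to 0.55). These correlations include the differences between groups and a shared scaling, and they are descriptive. The mean of the 7 members relative to the median gene ranged from -1.18 to -0.85 log2 units in 6-month-old WT and from -1.64 to -1.34 in 6-month-old UBR4 mKO. At 24 months it ranged from -1.42 to -0.97 in WT and from -1.36 to -0.84 in UBR4 mKO. The 6-month-old UBR4 mKO samples were thus below all 6-month-old WT samples and overlapped at one edge with the 24-month-old groups.

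Among the other 14446 genes ranked, the mean of the members was followed most closely by Gpr37l1 (Pearson's r = 0.91, Spearman's rho = 0.89, n = 16 samples), a receptor known from glia, at a mean of 0.344 TPM. It was followed by Znhit3, Sdf4, Slc27a1, Sqrdl, Atp6v0e2, Zfp637 and Zfp35, with r of 0.87 to 0.88. The likeness is over all groups together and includes their differences.

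Of 14 other myelin sheath genes, 1 was higher in TPM in 6-month-old UBR4 mKO, beside 37.7% of all genes, and none was called in TPM in the other 4 comparisons. The gene was Gldn, which encodes the node of Ranvier protein gliomedin, at 0.249, 0.343, 0.230 and 0.231 TPM in WT and 0.439, 0.449, 0.446 and 0.704 TPM in UBR4 mKO. Its groups did not overlap, and the fold change was 0.74 (SE 0.26, adjusted p = 0.0364 in limma), but the call was lost with median-of-ratios scaling (0.46, adjusted p = 0.196), where 2 of the 14 were lower (Cadm4 and Ugt8a), beside 7.73% of all genes. With that scaling Drp2 was also lower at 24 than at 6 months in UBR4 mKO (-0.58, adjusted p = 0.0160). The median over the 14 genes was -0.02 at 6 months, against 0.34 over all genes.

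Of 8 regulators of Schwann cells, 7 were tested, and 1 was higher in 6-month-old UBR4 mKO and 1 higher with age in WT, where 37.7% and 18.6% of all genes were called higher. Erbb3, the receptor through which axonal neuregulin acts on Schwann cells, was at 1.00, 1.59, 1.32 and 0.848 TPM in 6-month-old WT and at 1.92, 1.89, 2.34 and 2.55 TPM in 6-month-old UBR4 mKO. It rose without overlap, by 0.84 on the log2 scale (SE 0.23, adjusted p = 0.0111 in limma), but its call was lost with median-of-ratios scaling (0.51, adjusted p = 0.0651). Egr2, the myelin transcription factor, rose with age in WT, from 0.475 ± 0.0984 TPM to 0.828 ± 0.0944 TPM (SD, n = 4 each), by 0.70 (SE 0.20, adjusted p = 0.0255), and also lost its call after that scaling (0.47, adjusted p = 0.115). The other regulators were not called in any comparison in TPM. Erbb3 was lower at 24 than at 6 months in UBR4 mKO with the scaling only (-0.63, adjusted p = 0.0343), and Nrg1 was listed at 0 in 13 of the 16 samples.

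Among 13 genes of non-myelinating or repair Schwann cells, 7 were tested, and Gfap, Gap43, Sox2, Shh, Olig1 and Artn were too low. At 6 months 2 of the 7 were higher and 1 was lower in UBR4 mKO, beside 37.7% and 1.04% of all genes, and 2 rose with age in WT, beside 18.6%. Gdnf, a trophic factor for motor neurons that myofibers and Schwann cells can both make, was at 0.201, 0.335, 0.385 and 0.170 TPM in 6-month-old WT and 0.523, 0.609, 0.473 and 0.669 TPM in 6-month-old UBR4 mKO. It rose in UBR4 mKO by 0.88 (SE 0.23, adjusted p = 0.00826 in limma) and with age in WT by 1.89 (SE 0.23, adjusted p = 6.42e-05), and both calls were kept with median-of-ratios scaling. Its interaction of -1.41 (adjusted p = 0.0247) was opposite in sign to that of Ncmap. The sodium channel gene Scn7a rose in 6-month-old UBR4 mKO (0.81, adjusted p = 0.0185), Gfra3, a receptor subunit for artemin, fell by 0.82 (adjusted p = 0.0464) and L1cam, a cell adhesion gene, rose with age in WT (0.60, adjusted p = 0.0250). With median-of-ratios scaling, Scn7a (adjusted p = 0.134) and L1cam (adjusted p = 0.155) lost their calls. Gfra3 was listed at 0 in 2 of the 4 UBR4 mKO samples at 6 months, so the size of its fall depends on the value added.

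Genes of motor axons and genes that myofibers raise upon denervation were read beside the members. Axonal RNA was sparse, with Chat at 0 in all 16 samples and 4 of 8 axon genes tested. Uchl1, which is not restricted to neurons, was at 2.47 ± 0.698 TPM in WT and 11.5 ± 3.38 TPM in UBR4 mKO at 6 months (SD, n = 4 each), a fold change of 2.16 on the log2 scale (adjusted p = 0.000522 in limma), and Tubb3 also rose (1.03, adjusted p = 0.0215). Stmn2, which binds tubulin in axons, had a fold change of -0.24 (95% interval -0.66 to 0.18, adjusted p = 0.324), and Prph one of 0.13 (adjusted p = 0.672). With median-of-ratios scaling Uchl1 was still higher (1.82, adjusted p = 0.00511), Tubb3 did not pass (0.90, adjusted p = 0.0721) and Stmn2 was lower (-0.57, adjusted p = 0.0495). With age in WT, Tubb3 rose (1.60, adjusted p = 0.00400, and 1.51, adjusted p = 0.00889, with the scaling), whereas Stmn2 was at -0.49 (adjusted p = 0.0813) in TPM and lower with the scaling (-0.75, adjusted p = 0.0200). No axon gene was called in the other 3 comparisons in either scaling. Of 11 denervation response genes, among them those of the acetylcholine receptor and Myog, 10 were higher in 6-month-old UBR4 mKO, with a median of 1.38. In WT 9 of the 11 rose with age (median 1.63), and 0 were called between the genotypes at 24 months. The interaction was called below 0 for 6 of them. With median-of-ratios scaling these counts were 9, 7, 0 and 3. Of the 14424 genes tested in that scaling, 980 were higher, 614 higher, 119 called in either direction and 113 below 0. In TPM the shares of all genes called in the same comparisons and directions were 37.7% higher, 18.6% higher, 0.595% in either direction and 3.41% below 0. In the first 3 of these comparisons the members' medians were -0.13, 0.21 and 0.02. The paper reports centralized nuclei in myofibers of UBR4 mKO mice and reads them as a sign of degeneration with regeneration. Whether the values of the listed genes go with denervation or with regeneration was not tested.

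**Figure D4:**
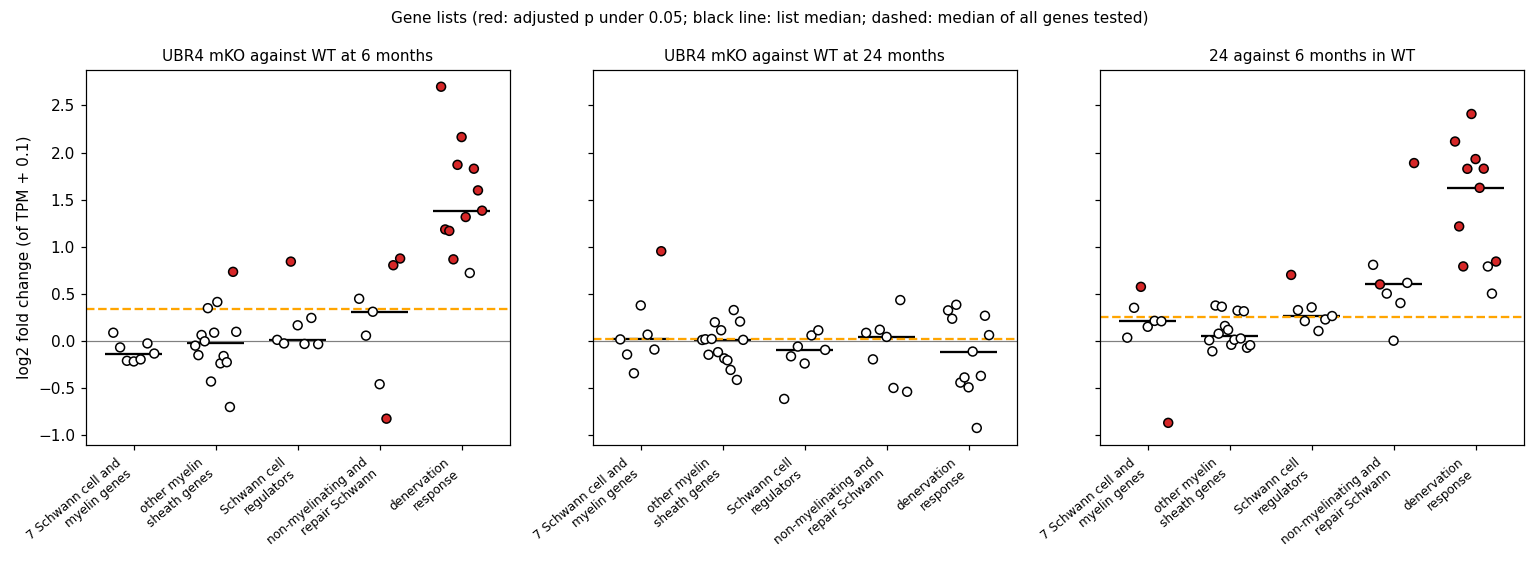
Log2 fold change of TPM + 0.1 (vertical axis) of the tested genes in 5 lists (horizontal axis) in 3 comparisons, red where the limma adjusted p is under 0.05, with black lines for list medians and a dashed line for the median of all genes tested. The denervation response genes center on 1.38 and 1.63 in the left and right panels, whereas the 7 members center on -0.13 and 0.21.

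Markers of other cell types of the muscle were read at 6 months beside the 37.7% of all genes called higher and the median gene at 0.34. The 5 tested leukocyte markers all rose (median 2.01), and their list summed to 13.7 to 20.5 TPM in WT and 46.6 to 159.4 TPM in UBR4 mKO. Of 5 endothelial markers 3 rose (Emcn, Cdh5 and Pecam1), with a list median of 0.42, near that of all genes, and the list summed to 70.9 to 96.3 and 110.6 to 120.1 TPM. Of 5 fibroblast markers 3 rose (Col3a1, Pdgfra and Lum), with a median of 0.83. Of 4 mural cell markers 1 rose (Rgs5), of 5 tendon markers 1 (Thbs4) and of 5 blood markers 0. Of the 5 myofiber markers 3 rose (Ckm, Acta1 and Myh1), with a median of 0.28, and their sums were 54240 to 61679 TPM in WT and 66507 to 72047 TPM in UBR4 mKO. With median-of-ratios scaling, 5 leukocyte, 0 endothelial, 1 fibroblast, 0 mural cell, 0 tendon and 1 myofiber markers were called higher, and 1 mural cell marker (Myh11) was called lower. Of all genes tested in that scaling, 980 were called higher and 1115 lower. The values of Emcn and Rgs5 were then -0.03 and -0.01, and the myofiber median was -0.08. Perineurium genes (Cldn1 and Itgb4), which mark the sheath of nerve fascicles, were not called in any comparison and had a median fold change of -0.0020 at 6 months. Melanocyte markers, which share SOX10, summed to at most 0.461 TPM in any sample. What part the other cell types had in the place of the members below the median gene was not tested.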

How the data were processed

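The authors trimmed and filtered paired-end reads, aligned them to GRCm38 (mm10) with CLC Genomics Workbench and deposited TPM values, 1 column per mouse and 16 in all. The methods state fewer RNA-seq replicates per group than the samples deposited, and all 16 were used. A stranded library kit is named in the labels but the TruSeq RNA v2 kit and a different HiSeq model in the methods. The annotation release, the use of strand and the treatment of reads matching several genes are not given in the sources used here. Each sample sums to 1000000 TPM, so depth is unknown and no counting intervals can be given.

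After adding 0.1 to TPM and taking log2, limma 3.58.1 in R 4.3.3 (trended variance, 4 group coefficients) was run on 14453 genes whose mean over the 16 samples reached 0.1 TPM. P-values were adjusted by Benjamini-Hochberg across these genes, and 0.05 was the threshold. The study's methods name the Kruskal-Wallis test with Dunn's test, used here as an alternative. Single members were also compared over all 70 splits of their 8 samples (exact permutation, two-sided). For the median-of-ratios scaling, genes detected throughout gave each sample's factor. The fit was tested on simulated data. Within groups, samples correlated at 0.971 to 0.991 over genes and 0 pairs were identical; replicates are separate mice as far as the labels say.

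The members, the gene lists and the tests were chosen with earlier results of these data known. All 7 members are named, and of the other lists some of those called or highest. The result of 1 gene is not reported here by itself. The genes most like the members are the 8 with the highest Pearson correlation with their mean, each relative to the sample's median gene, leaving out placeholder symbols. Transcripts of the members were aligned to all transcripts with minimap2 2.31, which found no near-identical copy in another gene. Promoter sequences are those of RefSeq (GRCm38.p6). Python 3.11.15 with matplotlib 3.10.9 drew the plots. Alternatives covered the pseudocount (1 and 0.01), the filter on low values, the scaling, array weights, a replicate block, the groups fitted and the samples left out.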

Additional observations from a re-analysis of the deposited data

Results flagged for a closer look

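Ncmap was set apart because the effect of UBR4 loss on it differed between the ages, by 1.09 on the log2 scale, as given above (limma adjusted p = 0.0150).

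Single samples far from the rest of their group were looked for in the 28 sets of 4 values (7 members in 4 groups), where chance gives 1.4 such samples, about 1 in 20 sets, and 2 were found. Sox10 in replicate 1 of 6-month-old WT was at 0.382 TPM, below 0.554 to 0.587 TPM in the other 3. Ncmap in replicate 3 of 24-month-old WT was at 0.488 TPM, below 0.628 to 0.639 TPM, and the fold changes of Ncmap without that sample are within the ranges given below.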

How the results depend on the processing

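Over the 7 members and 5 comparisons, 1026 values were recomputed under 14 alternatives or without 1 sample, of which 930 kept direction and side of the threshold. Below, the 3 alternatives with a Xist covariate or without replicate 4 of 6-month-old UBR4 mKO after median-of-ratios scaling were chosen after seeing the data. Where no value shows the cause of a change, the cause was not tested.

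The count of members called at 6 months was 0 in TPM, 3 with median-of-ratios scaling, 3 with that scaling without replicate 4 and 2 with it and the Xist covariate. At 24 months it was 1, and 0 with only the 24-month-old groups fitted or with Dunn's test. For age in WT it was 2, and 3 with a filter of mean TPM at least 1 and with array weights. Array weights called 6571 of all genes in that comparison, against 2840 in the main fit. The count of members for age in WT was 1 with pseudocount 0.01, with no filter, with genes above 0 in every sample, with median-of-ratios scaling (also without replicate 4), without the mitochondrial genes and with the replicate block. It was 0 with Dunn's test and with the Xist covariate in either scaling. Leaving out 1 sample gave 1 to 3 members for age in WT, and 0 to 1 for age in UBR4 mKO, where the 1 was Sox10 without replicate 1 of 24-month-old WT.

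Reversals occurred in results that were not called in TPM. With median-of-ratios scaling, without the mitochondrial genes, with that scaling and the Xist covariate, and with it without replicate 4, the values were as follows, in this order. Pmp22 at 6 months gave -0.26, -0.16, -0.23 and -0.29. The interactions were 0.26, 0.14, 0.24 and 0.29 for Pmp22, 0.25, 0.13, 0.23 and 0.28 for Mbp, 0.17, 0.070, 0.18 and 0.26 for S100b, and 0.25, 0.14, 0.22 and 0.29 for Prx. Pmp22 at 24 months gave -0.0022 with the scaling, -0.023 without the mitochondrial genes and -0.0023 with the scaling without replicate 4. For age in WT the same 3 settings gave -0.24, -0.16 and -0.24 for Pmp22 and -0.080, -0.019 and -0.080 for Sox10, and the scaling gave -0.047 for Prx, with and without replicate 4. Mag gave -0.38 for age in WT with the scaling and the Xist covariate, and -0.14 at 24 months with array weights. Prx at 6 months gave 0.0099 with the Xist covariate. Pmp22 for age in UBR4 mKO gave 0.024 with the scaling, 0.056 with it without replicate 4, 0.041 with array weights, 0.45 with the Xist covariate and 0.25 with both. Without 1 sample, the values ran from -0.17 to 0.14 for Prx at 6 months, from -0.050 to 0.080 for Pmp22, -0.053 to 0.23 for Mag and -0.25 to 0.0080 for Prx at 24 months, from -0.014 to 0.10 for Pmp22 and -0.12 to 0.40 for Sox10 for age in WT, from -0.10 to 0.032 for Pmp22 for age in UBR4 mKO, and from -0.17 to 0.0061 for Mbp and -0.23 to 0.084 for Prx in the interaction.

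Ncmap at 24 months ranged from 0.49 to 1.06 under the alternatives (adjusted p 0.00205 to 0.911) and from 0.87 to 0.99 without 1 sample. Ncmap for age in WT ranged from -1.12 to -0.15 and from -0.93 to -0.79. The number of genes called moved by more than 1.5 times in each comparison, from 1703 to 7966 at 6 months, 0 to 259 at 24 months, 0 to 6571 for age in WT, 0 to 1820 for age in UBR4 mKO and 156 to 2382 for the interaction, beside 5601, 86, 2840, 938 and 508. Leaving out 1 sample gave 3073 to 7193, 27 to 94, 1078 to 5143, 544 to 1036 and 201 to 2268, so the shares of all genes depend on single samples too. The samples that moved a count by more than 1.5 times were replicate 4 of 6-month-old WT at 6 months, replicates 1, 3 and 4 of 24-month-old WT, 4 of 24-month-old UBR4 mKO and 2 of 6-month-old UBR4 mKO at 24 months, replicates 2, 3 and 4 of 6-month-old WT, 1 and 4 of 24-month-old WT and 3 of 24-month-old UBR4 mKO for age in WT, and replicates 2 and 3 of 6-month-old UBR4 mKO for age in UBR4 mKO. For the interaction, 10 of the 16 samples did, and the highest count was that without replicate 2 of 6-month-old WT. Calls higher were 97.3% of all calls at 6 months in TPM and 980 of 2095 with median-of-ratios scaling, for age in WT 94.5% and 614 of 1233, at 24 months 60.5% and 54 of 119, for age in UBR4 mKO 356 of 938 and 750 of 1478, and for the interaction 15 of 508 and 90 of 203.

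The replicate numbers of the labels did not pair the samples, since 2 of 24 same-numbered pairs had a correlation of deviations over 0.1 (range -0.19 to 0.14) and 3 of 16 samples correlated best with their own number. With the replicate block, Ncmap kept its calls (adjusted p = 0.0290 at 24 months, 0.00495 for age in WT, 0.0332 for the interaction), S100b for age in WT had an adjusted p of 0.0802, and the interaction was called for 286 genes.

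Depth is unknown, so the error of low members such as Mag cannot be split into counting and other parts. Age comparisons share their samples with the genotype comparisons, and Xist moves with age.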
